A study of Homo sapiens with 4 samples.

Results

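The genes for the collagens were examined in ATAC-seq data of MCF10A, a line of human mammary epithelial cells that is not transformed. ATAC-seq uses a transposase that cuts accessible DNA and leaves sequencing adapters in it, so that peaks of reads mark open chromatin. The members were the 44 protein-coding genes of GENCODE release 44 whose symbol is COL, a number, A and a number, of 19962 coding genes on chromosomes 1 to 22 and X. All cells carried the tet-inducible TAZ-4SA, a constitutively active form of TAZ, the transcriptional co-activator at the end of the Hippo pathway. Cells grown without doxycycline (No Dox, 2 replicates) were compared with cells given 0.05 µg/mL doxycycline for 72 h (Dox, 2 replicates), at 50000 cells per reaction. Because the No Dox cells carried the transgene but received no drug, effects of TAZ-4SA and of doxycycline itself cannot be told apart.

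The authors pooled the replicates before they called peaks, so that each condition was 1 list and no replicate error could be given for any value below. The Dox list held 84353 peaks and the No Dox list 117740, and the files do not give the read depth of either condition. Peaks of both lists that overlapped or touched were joined into 149858 union regions. A region was shared when it held peaks of both lists and otherwise Dox-only or NoDox-only. Each region went to the coding gene with the nearest transcription start site (TSS) within 100 kb, which gave 633 of 100100 assigned regions to collagen genes. The fold is the enrichment of a peak at its summit over the background of its own list, with a median of 4.07 in the Dox list and 3.81 in the No Dox list. Among markers of a basal mammary epithelial line, KRT5, EGFR, ITGB4 and LAMB3 had promoter peaks in both lists, TP63 in the Dox list alone and KRT14 in neither. Of 7 markers of fibroblasts and other cells, PDGFRB and TWIST2 had promoter peaks in both lists, PDGFRA in the Dox list alone, DCN and PTPRC in the No Dox list alone, and LUM and PECAM1 in neither. Regions of these 7 genes were 32 Dox-only and 20 NoDox-only (61.5% Dox-only, 47.0% to 74.7%), beside 41% over all coding genes. Of these regions PDGFRB held 17 and 2. What part other cells had in the collagen counts was not tested. A peak near a promoter does not show that the gene was transcribed.

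Collagens are triple-helical proteins of the extracellular matrix. Fibrillar collagens form the banded fibrils of connective tissue, type IV forms the sheet-like network of the basement membrane on which mammary epithelium rests, and type VI forms beaded microfilaments. Fibril-associated collagens (FACITs) decorate the surface of fibrils, multiplexins lie in basement membrane zones, and transmembrane collagens stay anchored in the cell membrane. Epithelial cells make mainly basement membrane and transmembrane types, while fibroblasts and other mesenchymal cells make most fibrillar collagen.

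Collagen genes held more regions found in the No Dox list alone than in the Dox list alone, and COL22A1 accounted for that excess. Of the 633 regions, 162 were Dox-only, 286 were NoDox-only and 185 (29.2%, beside 37.1% over all coding genes) were shared. Of the 448 condition-only regions, 36.2% were Dox-only (95% Clopper-Pearson interval 31.7% to 40.8%, which covers counting error only), beside 41% over all coding genes, where 59% were NoDox-only. COL22A1 alone held 141, or 49.3%, of the NoDox-only regions. Without COL22A1, 152 regions were Dox-only and 145 NoDox-only, a Dox-only share of 51.2% (45.3% to 57.0%), and without both COL22A1 and COL5A1 the share was 47.3% (41.2% to 53.4%). The direction also rested on the longer No Dox list. With that list shortened to the length of the Dox list by q-value, the Dox-only share was 53.3% for collagens and 56.0% for all coding genes.

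Counted by gene, the family was close to evenly divided. More Dox-only than NoDox-only regions were found at 19 collagen genes, or 44.2% of the 43 with any condition-only region, beside 45.7% of all such coding genes. The reverse held at 22 collagen genes. COL4A5 had 2 of each kind, COL25A1 had 3 of each kind, and COL7A1, the collagen of anchoring fibrils, had none of either. At 14 of the 43 there were Dox-only regions and no NoDox-only region, close to the 33.4% of all coding genes with a condition-only region. These 14 held 48 Dox-only regions in all, and their regions were rich in G and C, with a median over genes of 61.5% GC. Over the 22 genes with more NoDox-only regions the same median was 45.6%. The 14 genes were also short, with a median length of 36.6 kb, where the 22 had a median of 161 kb. The same medians over all coding genes of these kinds are not given, so these traits are not shown to be particular to collagens. The part of GC content and length in the balance was not tested.

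**Figure D1:**
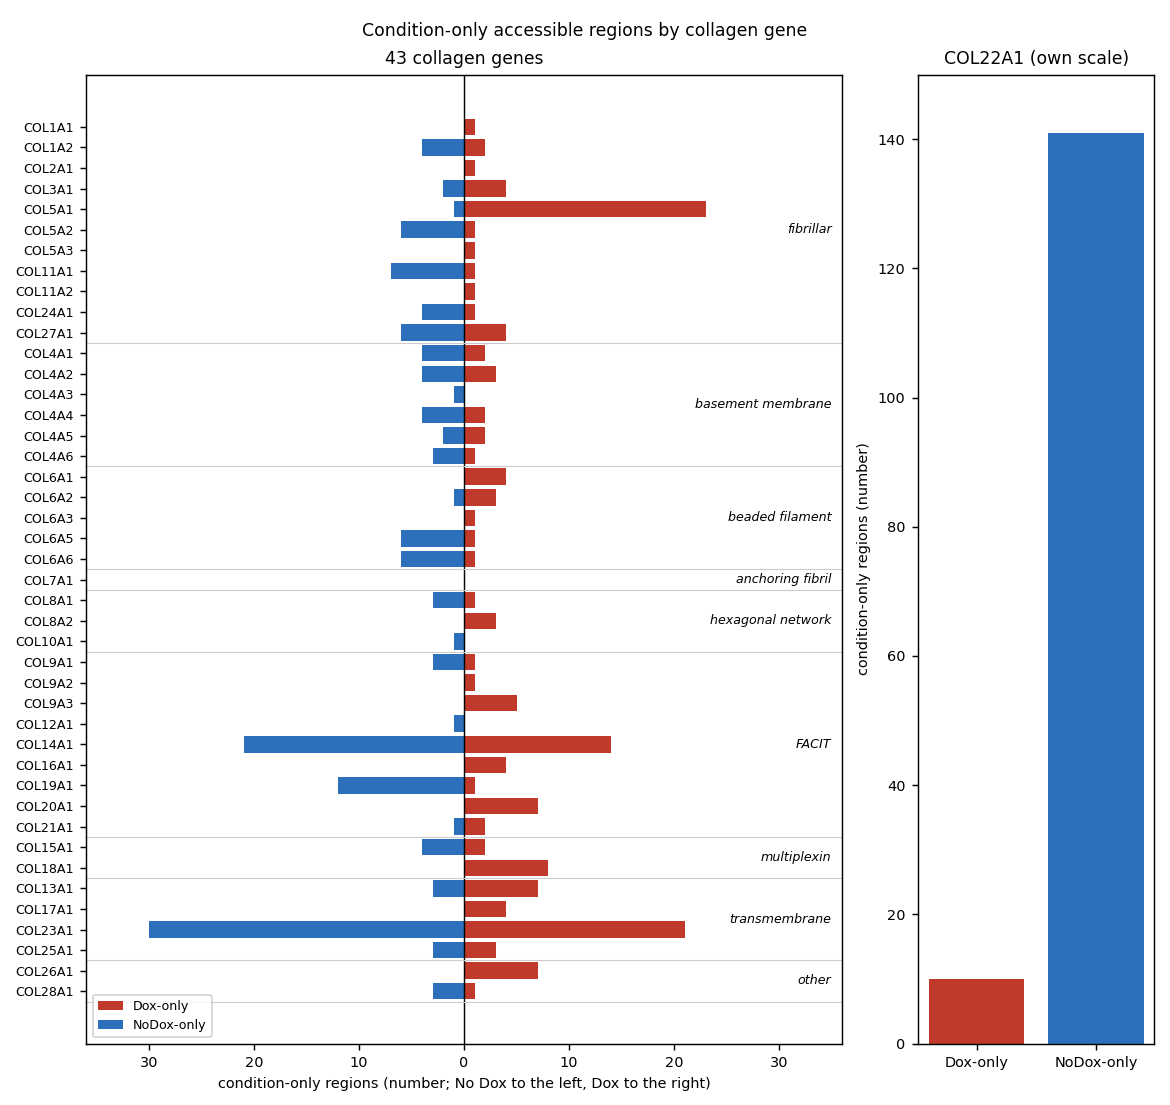
Number of condition-only regions at each collagen gene, grouped by class, with Dox-only regions to the right and NoDox-only regions to the left of 0. COL22A1 is drawn on its own scale because it had 141 NoDox-only regions, while no other gene had more than the 30 of COL23A1. COL5A1 stands out on the Dox side with 23 regions.

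Among the fibrillar collagens, 40 regions were Dox-only, 30 NoDox-only and 26 shared, a Dox-only share of 57.1% (44.7% to 68.9%). This class rested on COL5A1, which encodes an alpha chain of type V collagen, the fibrillar type that starts the assembly of type I fibrils. COL5A1 on chromosome 9 had 23 Dox-only regions, 1 NoDox-only region and 3 shared regions. Its surplus of 22 Dox-only regions ranked 30 from the top of 19962 coding genes. Without it, the other 10 fibrillar genes had 17 Dox-only and 29 NoDox-only regions (37.0%, 23.2% to 52.5%).

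The COL5A1 regions ran from 97.1 kb upstream of the start to near the end of the gene, with 14 of the 23 Dox-only regions inside it. Most were weak peaks. Their folds ranged from 2.71, the lowest of the whole Dox list, to 7.91, with a median of 3.62. Of the 23, 4 reached the median fold of the list, beside 29.2% of the Dox-only regions of all coding genes. Mostly weak Dox-only peaks were thus not particular to COL5A1. The peak of fold 7.91 lay in an intron at chr9:134661723-134662846 (hg38), and the next highest folds were 5.43 upstream at chr9:134552102-134552978 and 5.20 in an intron at chr9:134703099-134703439. At the canonical start, a Dox-only peak of fold 3.39 lay 770 bp downstream, at chr9:134642573-134643029. All 3 shared COL5A1 regions had a higher ratio of Dox fold to No Dox fold than the median shared region. Their Dox and No Dox folds were 4.07 and 3.81, 4.29 and 3.18, and 8.36 and 5.08. The surplus was 23 with lists of equal length, 4 when regions below the median fold were left out and 6 at a q-value of at most 1e-05.

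COL5A1 lies in GC-rich DNA, and the Dox-only regions of all genes were richer in GC than the NoDox-only ones (medians of 52.7% and 45.5%). The regions of COL5A1 had a median GC content of 61.0%. Among its condition-only regions of at least 55% GC, 20 of 21 were Dox-only (95.2%, 76.2% to 99.9%), where 64.4% of all such regions of coding genes were. The part of GC content in the balance was not tested. The letters of the TEAD motif, ACATTCC or GCATTCC on either strand within 100 bp of the summit, were in 0 of the 23 Dox-only regions, beside 12.8% of the Dox-only regions of all coding genes, and the exact upper bound of 14.8% takes in that share. Anywhere in the region they were in 2 of 23. TEAD factors are the DNA-binding partners through which TAZ acts. The AP-1 letters, TGACTCA and its reverse complement TGAGTCA, were in 3 of 23 (95% interval 2.78% to 33.6%), beside 7.84%. These 3 sites are shown with the motif in capitals, since AP-1 is among the factors with which TAZ is known to act, together with 101 bases around the summit of the strongest Dox-only peak, which held neither motif (hg38, plus strand).
COL5A1 chr9:134544500-134544536: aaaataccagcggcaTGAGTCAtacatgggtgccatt
COL5A1 chr9:134552096-134552132: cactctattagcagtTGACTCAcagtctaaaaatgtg
COL5A1 chr9:134624873-134624909: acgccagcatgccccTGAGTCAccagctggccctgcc
COL5A1 chr9:134662283-134662383: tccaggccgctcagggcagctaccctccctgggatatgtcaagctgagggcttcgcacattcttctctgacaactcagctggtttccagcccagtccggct

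COL5A2, which encodes the other main chain of type V collagen, had the opposite balance. On chromosome 2 it held 1 Dox-only, 6 NoDox-only and 6 shared regions, and 5 of its 6 shared regions had a ratio of Dox to No Dox fold below the median of all shared regions. Its promoter had a peak in the No Dox list alone, of fold 3.18. Both the second-strongest Dox-only peak and the strongest NoDox-only peak of the whole family lay in COL5A2 introns. The Dox-only peak had a fold of 8.36 at chr2:189096797-189097267, and the NoDox-only peak a fold of 8.90 at chr2:189221939-189222962. Their summit sequences are set side by side here (hg38, plus strand), and neither held TEAD or AP-1 letters.
COL5A2 Dox-only chr2:189096905-189097005: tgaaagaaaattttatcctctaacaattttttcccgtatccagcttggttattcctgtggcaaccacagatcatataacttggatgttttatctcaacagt
COL5A2 NoDox-only chr2:189222606-189222706: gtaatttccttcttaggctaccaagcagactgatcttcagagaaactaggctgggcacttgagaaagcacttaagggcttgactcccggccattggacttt

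The 5 NoDox-only regions of COL5A2 other than the promoter had folds of 3.60, 4.87, 5.30, 5.51 and 8.90. COL5A1 and COL5A2 thus differed in both the count and the direction of their condition-only regions, as a description of these lists. The median GC content of the regions was 38.7% at COL5A2.

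**Figure D2:**
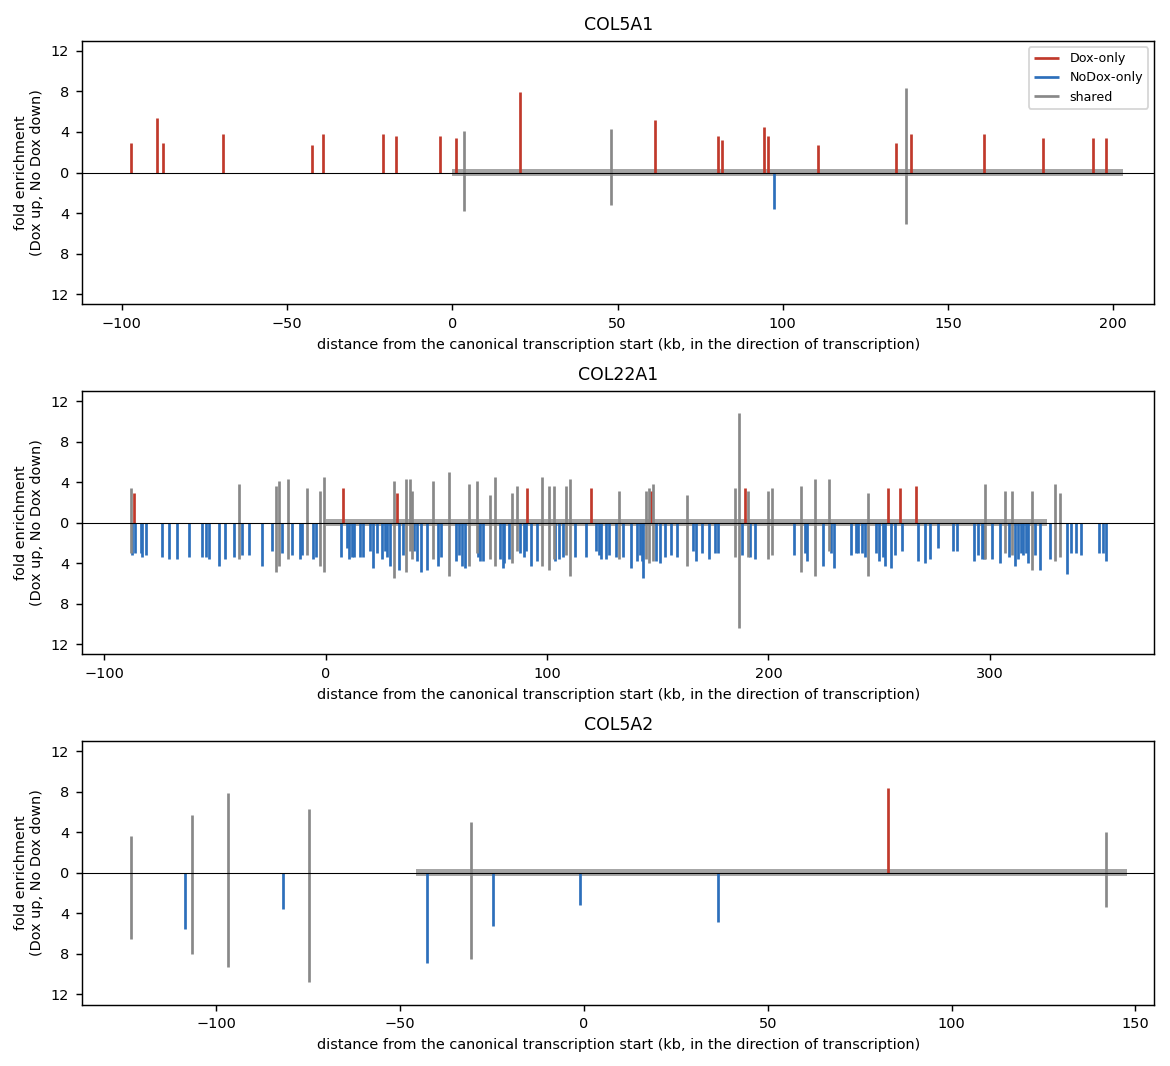
Regions of COL5A1, COL22A1 and COL5A2 by the distance of their centre from the canonical transcription start (kb, in the direction of transcription), with the Dox fold drawn upwards and the No Dox fold downwards. The grey bar marks the annotated gene. Dox-only lines fill the COL5A1 panel, NoDox-only lines of low fold fill the COL22A1 panel with a maximum of 5.51, and COL5A2 has 6 NoDox-only lines and 1 Dox-only line.

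Type I and type III collagen make up the bulk of tissue fibrils. COL1A1 had a shared peak at its promoter, of fold 6.10 in Dox and 5.30 in No Dox, with 1 Dox-only region and 1 further shared region. At COL1A2 the lists marked different starts. The No Dox list had a peak of fold 3.18 at chr7:94395426-94395666, 531 bp past the canonical start, and the Dox list had a peak of fold 7.23 at chr7:94423896-94424222, at a start inside the gene. COL1A2 held 2 Dox-only, 4 NoDox-only and 1 shared region, the shared one lying 93.0 kb upstream with folds of 15.6 and 11.7. COL3A1 had no promoter peak in either list, and held 4 Dox-only, 2 NoDox-only and 1 shared region. All Dox-only peaks of COL3A1 had folds from 3.16 to 3.84.

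COL11A1, a type XI chain mainly known from cartilage, held 1 Dox-only, 7 NoDox-only and 5 shared regions. Its Dox-only peak, intergenic at chr1:103180718-103181206, had a fold of 8.14, while its 7 NoDox-only peaks ranged from 2.97 to 3.60. Counting regions and weighing folds therefore gave opposite impressions at this gene. COL27A1 had 4 Dox-only and 6 NoDox-only regions, and COL24A1 had 1 and 4. COL2A1, the main cartilage collagen, COL5A3 and COL11A2 each had 1 Dox-only region and no NoDox-only region, with folds of 3.39, 2.71 and 2.71.

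FACIT genes leaned to the No Dox list, with 45 Dox-only, 179 NoDox-only and 72 shared regions (20.1%, 15.0% to 25.9%). That lean was carried by COL22A1, whose product lies at tissue junctions such as that of muscle and tendon. COL22A1 on chromosome 8 held 10 Dox-only, 141 NoDox-only and 45 shared regions, of which 108 NoDox-only regions lay within the gene. Its balance (Dox-only minus NoDox-only regions) of -131 was the 4th lowest of 19962 coding genes. Without it the other 9 FACIT genes had 35 Dox-only and 38 NoDox-only regions (47.9%, 36.1% to 60.0%).

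The NoDox-only peaks of COL22A1 were mostly weak. Their folds ranged from 2.54, the lowest of the whole No Dox list, to 5.51, with a median of 3.39. Of the 141, 41 reached the median fold of their list, beside 32.4% of the NoDox-only regions of all coding genes. Of the 10 Dox-only regions of COL22A1, 0 did, beside 29.2%. Its promoter was shared, at a fold of 4.52 in Dox and 4.87 in No Dox, and its strongest shared region, in an intron at chr8:138726724-138728284, had folds of 10.9 and 10.4. Of its 45 shared regions, 22 had a ratio of Dox to No Dox fold above the median of all shared regions. Shared peaks at COL22A1 thus had fold ratios near the middle of all shared regions. Regions were dense, at 46.7 per 100 kb of gene, beside 25.5 at COL23A1 and 12.1 at COL14A1, the 2 next largest holders. The balance of COL22A1 was -69 with lists of equal length and -31 at a q-value of at most 1e-05.

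The regions of COL22A1 had a median GC content of 49.9%. Between 45% and 50% GC, 2 of its 55 condition-only regions were Dox-only (3.64%, 0.443% to 12.5%), where 35.1% of all such coding-gene regions were. Between 50% and 55% the count was 2 of 47 (4.26%, 0.520% to 14.5%), beside 43.2% over all coding genes. COL22A1, COL23A1 and COL14A1 together held 333 of the 633 collagen regions (52.6%), on chromosomes 8 and 5. Chromosomes 1, 5 and 8 carried 38.5% of all Dox peaks and 37.6% of all No Dox peaks. On these chromosomes the 8 collagen genes had 55 Dox-only and 203 NoDox-only regions (21.3%, 16.5% to 26.8%), beside 41.2% over all coding genes there, and without COL22A1 the other 7 had 45 and 62 (42.1%, 32.6% to 52.0%). On the other chromosomes the 36 collagen genes had 107 and 83 (56.3%, 48.9% to 63.5%), beside 40.9% over all coding genes there. What part the chromosome had in these counts was not tested.

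**Figure D3:**
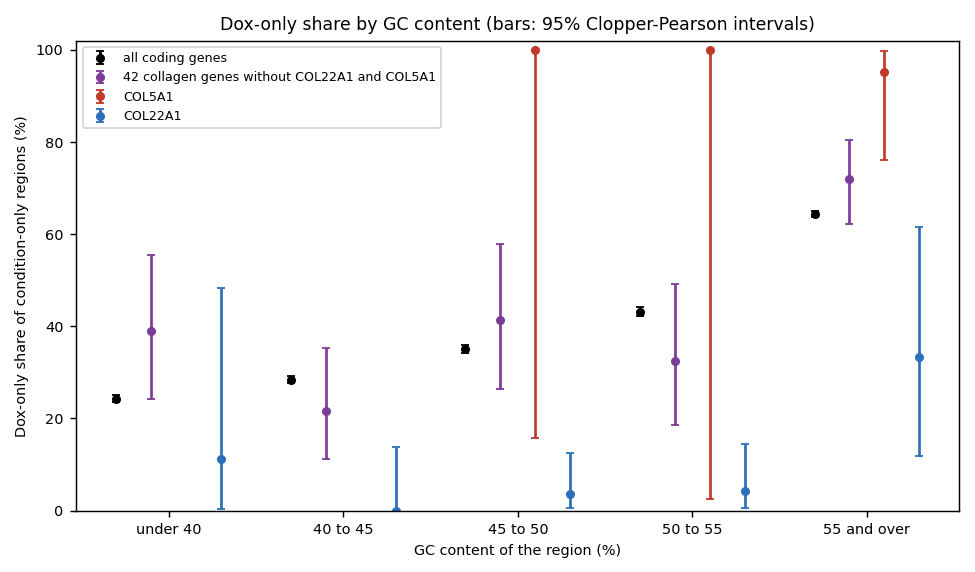
Dox-only share of condition-only regions (%) by GC content of the region for all coding genes, for COL5A1, for COL22A1 and for the other 42 collagen genes, with 95% Clopper-Pearson intervals that cover counting error only. The share over all coding genes is 24.3% under 40% GC and 64.4% at 55% and over, the 42 genes reach 72.0% there, and COL22A1 stays below all coding genes in every bin.

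For the remaining 42 genes the interval took in the share of all coding genes in each GC bin. At 55% GC and over, 72.0% of their 100 condition-only regions were Dox-only (62.1% to 80.5%), beside 64.4%. Between 50% and 55% the share was 32.5% (18.6% to 49.1%), beside 43.2%, and between 40% and 45% it was 21.6% (11.3% to 35.3%), beside 28.4%. Under 40% GC it was 39.0% (24.2% to 55.5%), beside 24.3%, and between 45% and 50% it was 41.5% (26.3% to 57.9%), beside 35.1%.

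Other FACIT genes went both ways. COL14A1, which binds fibril surfaces in skin and tendon, had 14 Dox-only, 21 NoDox-only and 10 shared regions, and its balance turned to 6 more Dox-only with lists of equal length. Its strongest NoDox-only peak, in an intron at chr8:120346498-120347560, had a fold of 7.63, while its Dox-only peaks did not pass 4.07.

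Among the rest, COL19A1 had 1 Dox-only and 12 NoDox-only regions, and all 12 lay in the gene with folds up to 3.81. Regions of COL20A1 were Dox-only without exception, 7 in number with folds from 2.94 to 4.29, and COL9A3 had 5 Dox-only, 0 NoDox-only and 1 shared region. COL16A1 held 4 Dox-only and 3 shared regions. COL12A1, a FACIT of dense connective tissue, had the strongest promoter of the family, with folds of 18.1 in Dox and 15.9 in No Dox, and 1 NoDox-only region. COL21A1 had 2 Dox-only regions and 1 NoDox-only region, the latter of fold 8.69 in an intron at chr6:56220169-56220672. COL9A1 had 1 and 3, and COL9A2 had 1 and 0.

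Most basement membrane genes had a promoter peak in both conditions. All 6 type IV genes had a promoter peak in at least 1 list, where 24.9% of all coding genes had none. In both lists 5 had one (83.3%, beside 65.3%). The highest promoter peaks of COL4A1 are also those of COL4A2, and likewise for COL4A3 and COL4A4, so these genes are not 5 separate elements. The class held 10 Dox-only, 17 NoDox-only and 19 shared regions (37.0%, 19.4% to 57.6%). Type IV genes lie head to head in pairs and share promoter DNA. The canonical starts of COL4A1 and COL4A2 were 126 bases apart, those of COL4A3 and COL4A4 418 bases, and those of COL4A5 and COL4A6 1415 bases. The shared promoter of COL4A1 and COL4A2, whose chains form the common network of all basement membranes, had a fold of 7.23 in Dox and 8.47 in No Dox. Between their starts lies the stretch below (hg38, plus strand), with a CCAAT box and a GC box (GGGCGG) in capitals. Searched on both strands, CCAAT was in 18.7% and GGGCGG in 31.3% of windows of the same length in 27305 RefSeq promoters.
COL4A1/COL4A2 chr13:110307158-110307257: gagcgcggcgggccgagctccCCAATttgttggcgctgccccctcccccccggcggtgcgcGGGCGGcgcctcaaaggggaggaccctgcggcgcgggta

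The promoter between COL4A3 and COL4A4 was stronger, with folds of 12.2 in Dox and 11.9 in No Dox. The ratio of these folds was 1.03, beside 0.854 at COL4A1 and COL4A2. These chains replace the common network in kidney and a few other membranes. In the gap of COL4A5 and COL4A6, a NoDox-only region at chrX:108439468-108439911 had a fold of 4.87, and it made COL4A5 a promoter with a peak in the No Dox list alone, while the canonical start of COL4A6 had a shared peak of fold 5.20 in Dox and 3.60 in No Dox. COL4A2 had 3 Dox-only and 4 NoDox-only regions and COL4A1 had 2 and 4. The strongest Dox-only peak of COL4A2, in an exon at chr13:110485555-110486323, had a fold of 7.91, and the strongest NoDox-only peak of COL4A1, intergenic at chr13:110070600-110070973, a fold of 6.78. COL4A4 had 2 Dox-only and 4 NoDox-only regions, COL4A6 had 1 and 3, and COL4A3 had 0 and 1.

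In the beaded filament class 10 regions were Dox-only, 13 NoDox-only and 8 shared (43.5%, 23.2% to 65.5%). COL6A1 and COL6A2, the type VI chains side by side on chromosome 21, had 4 Dox-only and 0 NoDox-only regions and 3 and 1. COL6A5 and COL6A6, side by side on chromosome 3, had 1 Dox-only and 6 NoDox-only regions each. COL6A3 had 1 and 0, with 5 shared regions. On chromosome 21 as well, COL18A1, the multiplexin from which endostatin is cut, had 8 Dox-only, 0 NoDox-only and 1 shared region, with folds from 2.94 to 5.20. COL15A1, the other multiplexin, had 2 Dox-only and 4 NoDox-only regions, and its 3 shared regions all had fold ratios below the median shared region.

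Among transmembrane collagens, COL17A1, the hemidesmosome collagen of basal epithelial cells, had 4 Dox-only regions, all in the gene, and no region of another kind. Those 4 peaks had folds of 2.94, 3.16, 4.29 and 4.29. COL13A1 had 7 Dox-only and 3 NoDox-only regions, yet 0 of the 7 and 2 of the 3 reached the median fold of their list. Over all coding genes, 29.2% of Dox-only and 32.4% of NoDox-only regions did. COL23A1 had 21, 30 and 41 shared, and its balance turned to 19 more Dox-only with lists of equal length. Of the hexagonal network genes, COL8A2 had 3 Dox-only and 0 NoDox-only regions. COL8A1 had 1 and 3, and its Dox-only peak, intergenic at chr3:99562979-99563922, had the highest fold of all Dox-only collagen peaks, 9.27. COL10A1, the collagen of growth plate cartilage, had 1 NoDox-only region, of fold 6.57, in an intron of NT5DC1 at chr6:116206195-116206543. COL26A1 had 7 Dox-only and 0 NoDox-only regions with folds from 2.71 to 6.33, and COL28A1 had 1 and 3 with 5 shared. Summit sequences of the COL8A1 and COL10A1 peaks follow (hg38, plus strand), and the AP-1 letters are in capitals.
COL8A1 Dox-only chr3:99563427-99563527: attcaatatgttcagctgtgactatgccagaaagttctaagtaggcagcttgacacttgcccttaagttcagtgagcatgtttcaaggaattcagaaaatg
COL10A1 NoDox-only chr6:116206362-116206462: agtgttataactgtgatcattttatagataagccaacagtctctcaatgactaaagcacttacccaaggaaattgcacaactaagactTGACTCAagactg

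Of the Dox-only regions, 32 of 162 (19.8%, 13.9% to 26.7%) reached the median fold of their list, beside 29.2% over all coding genes. Of the NoDox-only regions 87 of 286 did (30.4%, 25.1% to 36.1%), beside 32.4%. The strong regions were Dox-only in 26.9% (19.2% to 35.8%), beside 38.5% over all coding genes, and in 37.8% (26.8% to 49.9%) without COL22A1 and COL5A1. A fold of at least 8 was reached by 3 Dox-only regions, at COL8A1, COL5A2 and COL11A1, and by 2 NoDox-only regions, at COL5A2 and COL21A1. These were 1.85% of Dox-only and 0.699% of NoDox-only regions, beside 1.91% and 1.18% over all coding genes. The median Dox-only collagen peak stood at percentile 24.0 of its list, beside 33.3 for all coding genes. The median NoDox-only peak stood at percentile 36.7, as over all coding genes.

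Promoter states were compared next. A promoter was called present in a list when a peak came within 1 kb of any annotated start of the gene. Both lists had a peak at 23 of 44 collagen promoters (52.3%), beside 65.3% of all coding genes, and neither list at 10 (22.7%), beside 24.9%. The Dox list alone had one at 8 (18.2%), beside 5.85% of all coding genes, and the No Dox list alone at 3 (6.82%), beside 3.92%.

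The 8 promoters with a peak in the Dox list alone were those of COL2A1 (fold 3.39), COL5A1 (3.39), COL6A2 (3.16), COL6A6 (3.62), COL17A1 (3.16), COL18A1 (4.52), COL20A1 (2.94) and COL26A1 (2.94). Their folds stood between percentiles 5.53 and 56.9 of the Dox list. The 3 with a peak in the No Dox list alone were COL4A5 (4.87), COL5A2 (3.18) and COL15A1 (2.97). The 10 without a promoter peak were COL3A1, COL5A3, COL6A5, COL8A2, COL9A1, COL10A1, COL11A2, COL24A1, COL25A1 and COL28A1.

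These promoter states depended on the start and on the threshold. Counting the canonical start alone, 7 promoters had a peak in the Dox list alone (15.9%, beside 5.58% of all coding genes). The No Dox list alone had one at 4 (9.09%, beside 3.84%). Both lists had one at 15 (34.1%, beside 60.1%) and neither list at 18 (40.9%, beside 30.5%). COL2A1, COL17A1 and COL20A1 then had no promoter peak, COL23A1 and COL9A3 joined the Dox list alone and COL1A2 joined the No Dox list alone. At a q-value of at most 1e-05, the Dox list alone had 4, namely COL1A2, COL9A2, COL18A1 and COL23A1, beside 5.47% of all coding genes. COL18A1 was the only one of the 8 that was in the Dox list alone in both of these settings.

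**Figure D4:**
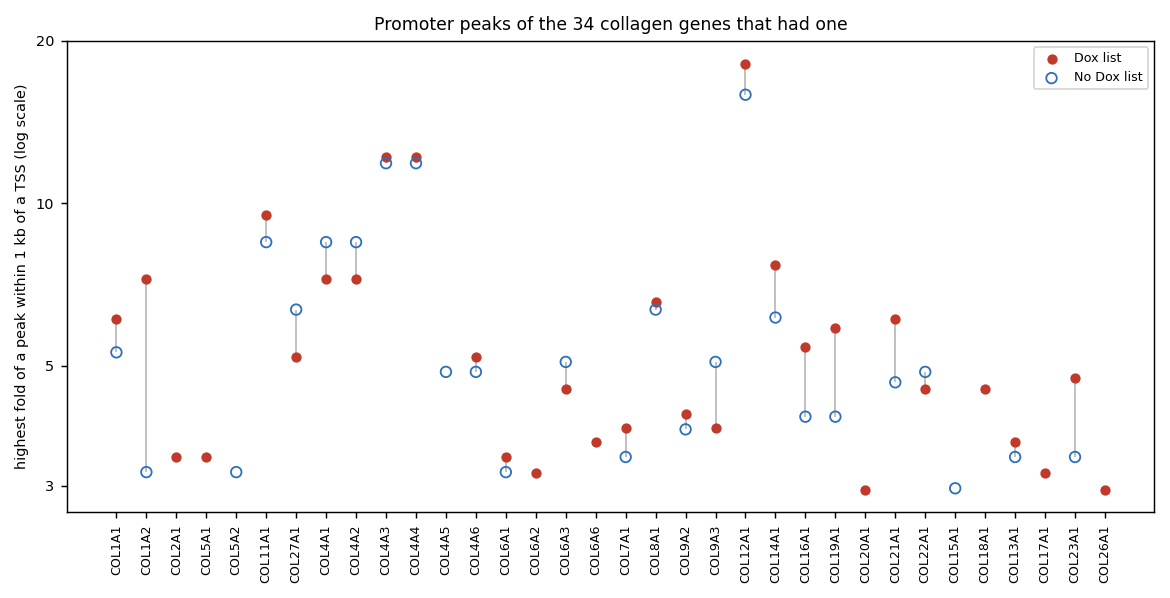
Highest fold of a peak within 1 kb of a start of each of the 34 collagen genes that had one, in the Dox list (filled) and the No Dox list (open), on a log axis, grouped by class. Genes with 1 symbol had a peak in 1 list alone. These sit at 4.87 or below, under COL12A1 (18.1 and 15.9) and the COL4A3 and COL4A4 pair (12.2 and 11.9).

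At 18 of the 23 promoters present in both lists, the highest peaks of the lists overlapped, and the ratio of Dox to No Dox fold ran from 0.756 at COL9A3 to 1.46 at COL19A1. Counted by gene, the Dox fold was the higher at 12 and the No Dox fold at 6. The single peaks of the COL4A1 and COL4A2 pair and of the COL4A3 and COL4A4 pair count for both genes. Each fold is relative to the background of its own list, and the same count over all coding promoters is not given. The count therefore does not show a lean of collagen promoters. The folds at COL19A1 were 5.88 in Dox and 4.02 in No Dox, at COL23A1 4.75 and 3.39, at COL21A1 6.10 and 4.66, and at COL14A1 7.69 and 6.14. At COL9A3 they were 3.84 and 5.08, and at COL27A1 5.20 and 6.35. Between these lay COL8A1 with 6.56 and 6.35, COL9A2 with 4.07 and 3.81, COL6A1 with 3.39 and 3.18, and COL7A1, the gene of the fibrils that tie the basement membrane to the stroma, with 3.84 and 3.39. COL6A3 had 4.52 and 5.08. The highest peaks lay apart at COL1A2, COL4A6, COL11A1, COL13A1 and COL16A1, so that their folds come from different elements, of 9.49 and 8.47 at COL11A1, 3.62 and 3.39 at COL13A1 and 5.43 and 4.02 at COL16A1.

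RefSeq (GRCh38.p14) held promoters of 32 collagen genes, with GC contents from 32.4% to 88.4% and a median of 65.2%, beside 62.4% over all coding genes. Each gene counts here with 1 promoter sequence, while its state comes from a peak near any annotated start. The GC content is therefore not always that of the DNA with the peak. An example is COL17A1 (40.4%), which had no peak at its canonical start. Where the Dox list alone had a peak the median was 69.8% (6 genes), beside 62.4% of all such coding genes. Where both lists had a peak it was 65.4% (16 genes), beside 65.2%, and where neither had one 61.8% (8 genes), beside 52.4%. The No Dox list alone had a peak at only 2 of these genes, of 51.2% and 76.8% GC, beside a median of 54%.

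At the 185 shared regions the ratio of Dox to No Dox fold was close to that of all shared regions. The median log2 ratio was -0.02 (quartiles -0.35 and 0.25), beside -0.08 (-0.37 and 0.23) over all 48557. Of the 185, 97 lay above the median of all (52.4%, 45.0% to 59.8%), 19 above the 90th percentile and 16 below the 10th. Since each fold is relative to the background of its own list, the percentile among all shared regions is given for the highest and lowest ratios below. Shared regions named elsewhere are given with their folds, without that percentile.

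The highest ratio was in an exon of COL4A3, at chr2:227310363-227311074, with a fold of 12.2 in Dox and 3.18 in No Dox (log2 1.94, percentile 99.8). COL14A1 followed, with an intronic region at chr8:120335352-120336558 of 10.2 and 3.18 (log2 1.68, percentile 99.5). This region held both TEAD and AP-1 letters, as did that of COL6A5 at chr3:130395964-130396434, with 6.56 and 3.18 (log2 1.04, percentile 97.5). An intron of COL25A1, which encodes a neuronal collagen, had 7.91 and 4.02 (log2 0.98, percentile 97.0). The internal start of COL11A1 at chr1:102879475-102880046 had 9.49 and 4.87 (log2 0.96, percentile 96.9).

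The lowest ratio was in COL4A3 too, in an intron at chr2:227227741-227228854, with 6.10 in Dox and 14.6 in No Dox (log2 -1.26, percentile 1.25). Next came a region assigned to COL4A4 in an exon of RHBDD1 at chr2:226995630-226996173, with 3.84 and 9.11 (log2 -1.25, percentile 1.32). An intron of COL19A1 had 4.75 and 11.2 (log2 -1.24, percentile 1.33). A region inside COL11A1, with its No Dox peak 867 bp from an annotated start, had 3.62 and 8.47 (log2 -1.23, percentile 1.39). The last of the 5, in an intron of COL23A1, had 4.07 and 9.53 (log2 -1.23, percentile 1.40). COL4A3 and COL11A1 were thus at both ends.

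**Figure D5:**
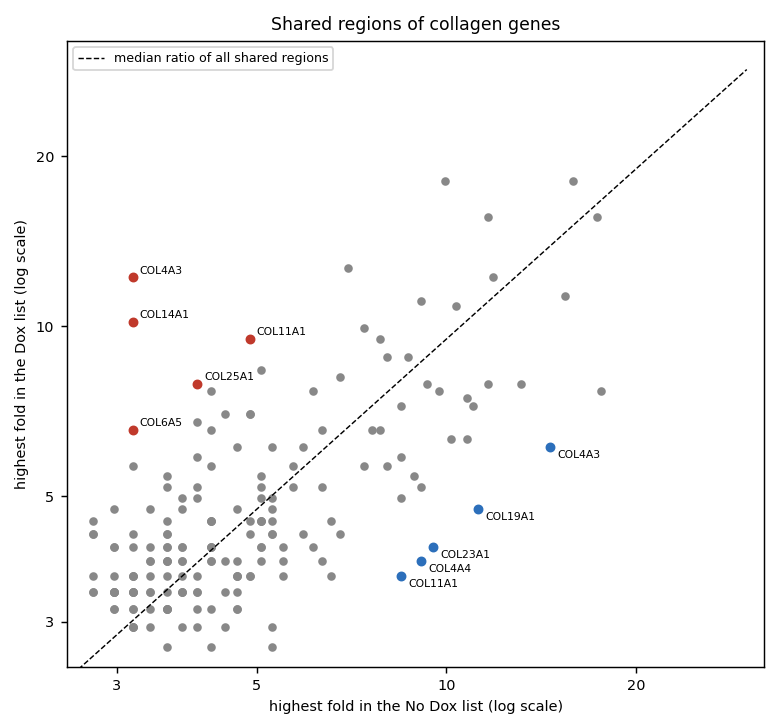
Fold in the Dox list against fold in the No Dox list for the 185 shared regions of collagen genes, both on log axes. The dashed line is the median ratio of all 48557 shared regions (log2 -0.08), and the 5 highest and 5 lowest ratios are coloured and named. Most points follow the line, with an exon of COL4A3 (12.2 against 3.18) farthest above it.

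Motif letters were counted in every collagen region. Those of TEAD were within 100 bp of the summit in 12 of 162 Dox-only regions (7.41%, 3.89% to 12.6%), beside 12.8% over all coding genes. They were in 17 of 286 NoDox-only regions (5.94%), beside 5.62%, and in 20 of 185 shared regions (10.8%), beside 9.25%. Among strong Dox-only regions, 2 of 32 had them (6.25%, 0.766% to 20.8%), beside 24.7%, but anywhere in the region 11 of 32 had them (34.4%, 18.6% to 53.2%), beside 36.3%. The AP-1 letters were in 12 Dox-only regions (7.41%, beside 7.84%), in 30 NoDox-only regions (10.5%, beside 12.8%) and in 35 shared regions (18.9%, beside 17.0%). The reversed TEAD letters, CCTTACA or CCTTACG, served as a control and were in 0, 5 and 1 of these regions.

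The 12 Dox-only regions with TEAD letters belonged to 11 genes, and COL21A1 had 2 of them. The regions of COL4A2 and COL5A3 held 2 matches each. The examples shown are that of the highest fold (COL18A1, 5.20), that of the next highest (COL21A1, 4.29), a match 8 bases from a summit (COL25A1) and the COL4A2 and COL5A3 regions. Each is given on the strand that reads the motif, with the motif in capitals (hg38).
COL18A1 chr21:45427823-45427859, minus strand: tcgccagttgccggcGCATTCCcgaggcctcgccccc
COL21A1 chr6:56025154-56025190, minus strand: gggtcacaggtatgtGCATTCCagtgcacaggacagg
COL25A1 chr4:109233600-109233636, plus strand: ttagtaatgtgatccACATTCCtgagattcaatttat
COL4A2 chr13:110527530-110527566, minus strand: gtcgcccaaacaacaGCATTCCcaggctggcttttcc
COL4A2 chr13:110527607-110527643, plus strand: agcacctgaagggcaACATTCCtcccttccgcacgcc
COL5A3 chr19:10008991-10009027, plus strand: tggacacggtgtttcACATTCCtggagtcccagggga
COL5A3 chr19:10009068-10009104, minus strand: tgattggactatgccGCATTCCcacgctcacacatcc

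Most collagen regions were intronic. The shares in introns, exons, intergenic DNA and the gene itself are not given over all coding genes. These shares are thus not shown to be particular to collagens. Of the Dox-only regions 98 (60.5%) lay in introns, 34 in intergenic DNA, 20 (12.3%, beside 15.6% over all coding genes) within 1 kb of a start and 10 in exons, and 120 (74.1%) lay in the collagen gene itself. Of the NoDox-only regions 206 (72.0%) were intronic, 64 intergenic, 13 (4.55%, beside 7.45%) within 1 kb of a start and 3 exonic, with 215 (75.2%) in the gene itself. Dox-only regions lay a median of 11.1 kb from the nearest start and NoDox-only regions 22.4 kb, close to the medians over all coding genes of 10.6 kb and 22.7 kb. Shared collagen regions lay at a median of 20.9 kb, beside 5.93 kb over all coding genes, and 16.2% of them were within 1 kb of a start, beside 37.0%.

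Genes that make and bind collagen were set beside the family. Of 19 genes of collagen biosynthesis and secretion, 17 (89.5%, beside 65.3% of all coding genes) had promoter peaks in both lists. Of their 48 condition-only regions 25 were Dox-only (52.1%, 37.2% to 66.7%), beside 41% over all coding genes. P4HA2, a prolyl 4-hydroxylase subunit, had 8 Dox-only and 0 NoDox-only regions, and SERPINH1, the collagen chaperone HSP47, had 3 and 0. COLGALT2, which adds galactose to hydroxylysine, had 1 and 11, and SEC23A, a coat protein of secretory vesicles, had 0 and 4. The prolyl 3-hydroxylase gene P3H3 had a promoter peak in the Dox list alone, of fold 4.29, and P4HA3 in the No Dox list alone, of fold 2.97.

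Of 14 genes of trimming and cross-linking, 13 (92.9%, beside 65.3% of all coding genes) had promoter peaks in both lists. Their condition-only regions were 33 Dox-only and 79 NoDox-only (29.5%, 21.2% to 38.8%), beside 41% over all coding genes. ADAMTS2, the procollagen N-proteinase, which is on chromosome 5 like COL23A1, held 7 Dox-only regions and 48 of the 79 NoDox-only regions. The low share of this list thus rested largely on ADAMTS2. TLL2 held 1 and 6. TGM2, the tissue transglutaminase, had 4 and 0 with a promoter peak in the Dox list alone, of fold 4.29. The lysyl oxidase genes LOXL1 and LOXL2 had 3 and 0, and 4 and 1. Of 10 collagen receptors, 6 (60%, beside 65.3%) had promoter peaks in both lists. Of their 34 condition-only regions 18 were Dox-only (52.9%, 35.1% to 70.2%), beside 41%. MRC2, which takes up collagen into cells, had 5 and 0. DDR2, a receptor tyrosine kinase for fibrillar collagen, had 4 and 7 with a promoter peak in the No Dox list alone, of fold 3.18. No promoter peak was found at ITGA10, LAIR1 and GP6.

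Of 21 other matrix glycoproteins, 13 (61.9%, beside 65.3% of all coding genes) had promoter peaks in both lists. Of their 233 condition-only regions 105 were Dox-only (45.1%, 38.6% to 51.7%), beside 41% over all coding genes. FBLN2 had the largest Dox-only surplus, 13 to 2, although its promoter peak, of fold 6.78, was in the No Dox list alone. AGRN, the basement membrane proteoglycan agrin, had 8 and 0. FBN2, a microfibril protein, had 13 and 57, and NID1, which links laminin to type IV collagen, had 15 and 27. ELN, NID1 and NID2 had promoter peaks in the Dox list alone, and FBLN2, DCN and BGN in the No Dox list alone.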

How the data were processed

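Pooled ATAC-seq peak lists, 1 per condition, were used. Per the labels and the study's methods, the authors mapped reads to hg38 with BWA and ran MACS2 on the 2 pooled replicates (FDR 0.05). The deposited fold enrichment (a ratio to background) ranked peaks within a list, and the deposited −log10 q-value was used for filters. The deposited score and −log10 p-value were not used. All 202093 peaks lay inside hg38.

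Peaks overlapping by at least 1 bp, or touching, were merged. Distances ran from the region's edge to the nearest TSS of any transcript of a coding gene (GENCODE release 44), and ties went to each gene. A region was strong if its fold reached the list's median. Motifs were sought on either strand, up to 100 bp from the highest peak's summit. With 1 list per condition no test was possible, and shares have exact Clopper-Pearson intervals of 95%, covering counting error only. Of these steps, merging into classes and assignment to genes were tested on simulated regions, and the others were not.

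Members, classes, gene lists and motifs were chosen with earlier results of these data known. Named were genes whose promoter state differed, the 3 genes of each class with the most condition-only regions, the genes of the 5 strongest regions on each side and of the 5 highest and lowest ratios, and the extremes of each comparison list. Others were named to account for every member. Python 3.11.15, numpy 2.4.6, pandas 2.3.3, scipy 1.17.1, pysam 0.24.0, samtools 1.23.1 and matplotlib 3.10.9 were used.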

Additional observations from a re-analysis of the deposited data

How the results depend on the processing

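Of the alternative values of family, class, promoter and motif results, 118 stayed within their limits and 47 moved. At a q-value of at most 1e-05 there were 57 Dox-only, 90 NoDox-only and 83 shared regions. Then 4 promoters were in the Dox list alone (9.09%, beside 5.47% of all coding genes) and 22 in neither (50%, beside 33.3%). Lists of equal length gave 172 NoDox-only regions and a Dox-only share of 53.3% (fibrillar 72.1%, FACIT 34.5%, transmembrane 71.9%). They gave 1 promoter in the No Dox list alone (2.27%, beside 2.58% of all coding genes). Strong regions alone gave 32 Dox-only and 87 NoDox-only regions and a share of 26.9% (FACIT 12.1%, transmembrane 33.3%). A TSS within 20 kb gave 104, 128 and 86 regions and a share of 44.8% (FACIT 26.9%), beside 48.9% over all coding genes. With TSSs of protein-coding transcripts, 5 promoters had a peak in the No Dox list alone (11.4%, beside 3.91% of all coding genes). With a window of 3 kb, 4 had a peak in neither list (9.09%, beside 20.4%). The TEAD share of Dox-only regions was 15.4% in whole regions, beside 19.6% over all coding genes, and the AP-1 share of NoDox-only regions was 5.24% within 50 bp of the summit, beside 8.26%, and 17.5% in whole regions, beside 18.5%.

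Chosen after seeing the data were 6 further alternatives. Leaving out COL22A1 gave 145 NoDox-only regions and a share of 51.2% (FACIT 47.9%), leaving out COL5A1 a fibrillar share of 37.0%, and leaving out both 144 regions and 47.3% (fibrillar 37.0%, FACIT 47.9%). Off chromosomes 1, 5 and 8 there were 107, 83 and 75 regions and a share of 56.3% (FACIT 48.5%, transmembrane 70%). A fold of at least 8 left 3, 2 and 38 regions, a share of 60% on these 5 condition-only regions, beside 53.0% over all coding genes, and a FACIT share of 0% on 1 region. The canonical TSS alone gave 15 promoters in both lists (34.1%, beside 60.1% of all coding genes) and 18 in neither (40.9%, beside 30.5%).

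The balance of single genes (Dox-only minus NoDox-only regions) stayed within its limits in 492 cases, moved without turning in 176 and turned in 24. Settings that only left out genes or chromosomes could not change the balance of the genes kept. Those cases are among the 492 by construction and say nothing of stability. At a q-value of at most 1e-05 the balance turned to 1 at COL11A1, COL1A2, COL4A4 and COL4A6, 2 at COL23A1 and -1 at COL13A1 and COL9A3. Lists of equal length turned it to 6 at COL14A1, 19 at COL23A1 and 1 at COL15A1, COL1A2 and COL27A1, and strong regions to 1 at COL11A1 and COL1A2 and -2 at COL13A1. It turned to 1 at COL4A4 with a TSS within 20 kb, at COL1A2 with the nearest gene of any type, at COL24A1 and COL28A1 by gene body, and at COL11A1 and COL8A1 with a fold of at least 8. At COL21A1 it turned to -1 with protein-coding transcripts, by gene body and with a fold of at least 8. Other causes of these changes than the altered lists themselves were not tested. No paired analysis was possible because the replicates were pooled into 1 list per condition, which also left no replicate to leave out. The files do not give the read depth of either condition, so a peak in 1 list alone does not show that the other condition lacked signal.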
